A study of Mus musculus with 6 samples.

Results

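Immediate early genes were examined in the left ventricles of adult mice whose dams had received caffeine or saline in early pregnancy. The 10 genes Fos, Fosb, Fosl2, Jun, Junb, Jund, Egr1, Ier2, Nr4a1 and Myc were taken by their mouse symbols from the 43629 genes listed for each heart, and all 10 were found. Each heart was a left ventricle of a 1 year old male CD-1 mouse of the F1 generation. The dams of 3 mice were injected with normal saline (vehicle) and those of the other 3 with 20 mg/kg caffeine, intraperitoneally and once a day, from E6.5 to E9.5 by the treatment label, while the extraction label ends the exposure at E10.5. The study's methods describe echocardiography under isoflurane up to 1 year of age, and injections of the adrenergic agonist dobutamine at younger ages, in male offspring of these exposures. Whether the 6 mice had undergone them, and how long before the ventricle was taken, is not given in the sources used here. The dam of each heart is not given, so some of these 6 hearts may share a litter. The edgeR p-values set the difference between treatments against the spread between hearts of a treatment, which is estimated partly from other genes.

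Immediate early genes are switched on within minutes of a stimulus such as a growth factor, stretch, adrenergic signalling or stress, without new protein synthesis, and their short-lived mRNAs soon fall again. Fos family proteins pair with Jun family proteins, and Jun proteins also pair with each other, to form the transcription factor AP-1. Signals reach these genes mainly through CREB, which binds the cAMP response element, and through SRF with its partners, which bind the CArG box. In the heart, Fos, Jun, Egr1 and Myc are known for their transient induction by pressure load and adrenergic agonists, and handling of tissue before RNA extraction can also induce the group.

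The sequences before the start sites of Fos, Fosb and Nr4a1 are shown because Fos and Nr4a1 varied most widely over the hearts by highest to lowest level, and Fosb is the family member that was barely detected. RefSeq promoter windows on GRCm38.p6, from 250 bases before to 50 bases after a start site, were matched for 7 of the 10 genes. Each sequence is on the strand of its gene, and capitals mark the core of the cAMP response element, TGACG, or its reverse complement, CGTCA. Fos lies at chr12:85473640-85473889 on the plus strand, Fosb at chr7:19310046-19310295 on the minus strand and Nr4a1 at chr15:101266596-101266845 on the plus strand.
Fos: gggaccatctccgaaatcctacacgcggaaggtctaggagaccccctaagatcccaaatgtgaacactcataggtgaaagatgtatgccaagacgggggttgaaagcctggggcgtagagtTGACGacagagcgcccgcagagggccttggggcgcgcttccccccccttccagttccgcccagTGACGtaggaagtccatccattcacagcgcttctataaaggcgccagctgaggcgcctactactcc
Fosb: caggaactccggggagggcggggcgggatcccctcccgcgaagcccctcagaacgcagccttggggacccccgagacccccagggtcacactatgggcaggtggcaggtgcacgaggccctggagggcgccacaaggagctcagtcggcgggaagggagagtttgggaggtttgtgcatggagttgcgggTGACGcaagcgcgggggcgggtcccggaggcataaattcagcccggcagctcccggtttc
Nr4a1: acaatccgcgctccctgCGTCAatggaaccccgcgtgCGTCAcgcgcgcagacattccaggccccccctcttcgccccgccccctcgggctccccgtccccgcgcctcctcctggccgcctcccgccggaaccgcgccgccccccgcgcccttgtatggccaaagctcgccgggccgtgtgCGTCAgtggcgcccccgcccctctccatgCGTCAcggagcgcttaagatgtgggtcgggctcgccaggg
In Fos the core stood at 2 places, from −129 to −125 and from −66 to −62 relative to the start site, and a TATA box (TATAAA) began at −33. Fosb held 1 core, from −60 to −56. Nr4a1 held 4, beginning at −233, −213, −69 and −40, all on the opposite strand. Its RefSeq start lies inside the longer gene of the GENCODE annotation. Junb held 1 core, from −106 to −102. Its RefSeq start lies before the GENCODE gene begins, and a TATAAA began at position 0, so these positions may not describe the annotated start. The windows of Jun, Fosl2 and Jund held no core. The windows follow RefSeq starts. That of Jund ends before the GENCODE gene begins and that of Fosl2 lies inside its gene, so neither describes the start of the gene as annotated here. The core was searched on both strands and occurred in 20.8% of the 32851 RefSeq windows of the same length. Neither the AP-1 site (TGANTCA, in 7.81% of windows) nor the CArG box (in 1.63%) was found in any of the 7 windows, which says only that these letters are not there. Egr1, Ier2 and Myc were not searched.

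Depth ran from 7613011 to 10483101 counted reads per heart. The totals of caffeine-treated hearts were the lowest 3. Counts are given as CPM, a unit in which libraries are brought to the same size, and before TMM scaling 3 counts stood at 0.286 to 0.394 CPM. The 10 genes with the most counts held 17.1% to 20.1% of the counts of vehicle hearts and 22.6% to 26.0% of those of caffeine-treated hearts. All other CPM values include TMM factors unless stated otherwise. These factors adjust for such differences in composition. The 8 cardiomyocyte markers summed to between 69220 and 78298 CPM in vehicle hearts and to between 70850 and 73269 CPM in caffeine-treated hearts, and those with the highest level per kilobase were Mb and Actc1. Of 4 atrial markers, Myl7 and Sln had 0 to 2 counts in each heart and Myl4 averaged 1.503 ± 0.265 CPM in vehicle and 1.23 ± 0.483 CPM in caffeine-treated hearts (SD, n = 3). The natriuretic peptide gene Nppa, which a loaded ventricle also expresses, had 51.3, 90.2 and 180.2 CPM in vehicle hearts and 266, 370.0 and 433 CPM in caffeine-treated hearts, without overlap (log2 fold change 1.73, edgeR adjusted p = 0.125). The 4 markers thus summed to 53.3 to 182 CPM and to 267 to 435 CPM, and their part in the levels of the immediate early genes was not tested. No pair of replicates agreed within sampling noise (chi-square per degree of freedom 5.37 to 14.01).

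The ventricle expressed the Jun family far above the Fos family. Per kilobase of exon, the mean level in vehicle hearts was highest for Jund (58.2 ± 4.11 CPM per kb, SD, n = 3), then Jun (21.2 ± 1.39), Junb (11.4 ± 0.851) and Ier2 (10.96 ± 0.546). Lower levels per kilobase followed for Nr4a1 (5.96 ± 2.79), Fosl2 (3.18 ± 0.331), Egr1 (2.08 ± 0.471), Fos (0.843 ± 0.294), Myc (0.838 ± 0.0886) and Fosb (0.0676 ± 0.0164). Among neighbours in that order, the hearts of Junb and Ier2, of Nr4a1 and Fosl2, and of Fos and Myc overlapped, and the other neighbours did not. The order of the means was the same in caffeine-treated hearts, where the overlapping neighbours were Junb with Ier2, Ier2 with Nr4a1, Fosl2 with Egr1, and Egr1 with Fos. Fos and Myc, whose levels per kilobase overlapped in vehicle hearts, did not overlap in caffeine-treated hearts (means of 1.91 ± 0.477 and 0.933 ± 0.414 CPM per kb, SD, n = 3).

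The comparison of caffeine with vehicle asked whether exposure of the embryo left a difference in the level of these genes in adulthood. By the quasi-likelihood test of edgeR no immediate early gene passed the thresholds, which were an adjusted p under 0.05 together with a fold above 1.5. That was 0 of the 9 genes tested, against 0.107% of all 13092 genes tested (0.084% higher and 0.0229% lower in caffeine). The mean level was higher in caffeine-treated hearts for each of these 9 genes, with log2 fold changes from 0.07 for Jund to 1.17 for Fos. Their median log2 fold change was 0.41, against 0.00 over all genes tested, of which 50.2% were above 0. In 4 of the 9 genes, Fos, Jun, Junb and Ier2, the lowest caffeine-treated heart was above the highest vehicle heart, where 7.11% of all genes showed this. In 0 of the 9 was the reverse seen, where 7.12% of all genes showed it. Without adjustment, 5 of the 9 genes had p below 0.05 (Fos, Jun, Junb, Ier2 and Egr1), against 8.82% of all genes.
DESeq2, limma-voom and edgeR's exact and robust tests also placed 0 of the 9 past the thresholds, with 5, 5, 6 and 5 genes at an unadjusted p below 0.05. The exact test placed 0.718% of all genes past the thresholds and DESeq2 0.512%. Scaling by library size alone left 2 of the 9 genes at an unadjusted p below 0.05 and 2 of the 4 without overlap, Fos and Jun, and turned the sign of Jund (log2 fold change −0.02). Without vehicle replicate 2 or without caffeine replicate 1, 3 of the 9 had an unadjusted p below 0.05. The shares of 8.82% and 7.11% of all genes belong to the quasi-likelihood fit of all 6 hearts with TMM scaling. Those of the other fits are not given here, so these counts cannot be set against them. For groups of 3 hearts, p = 0.1 is the smallest that an exact permutation test can reach.

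**Figure D1:**
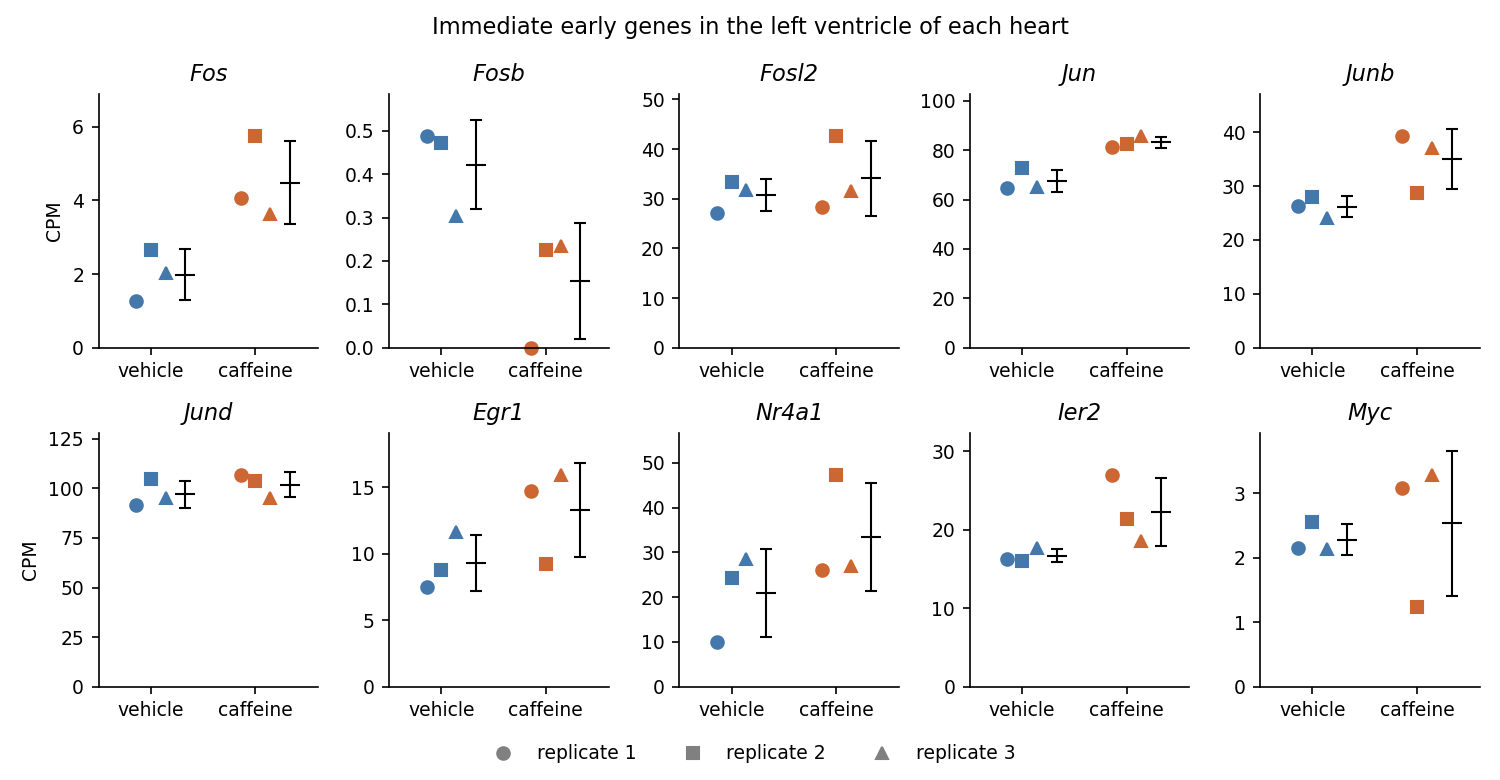
Level of each immediate early gene in CPM (vertical axis, a separate scale for each gene, starting at 0) in the vehicle and caffeine-treated hearts, 1 point a heart with its shape giving the replicate number, and bars giving mean ± SD (n = 3). Fos, Jun, Junb and Ier2 are the genes whose caffeine-treated points all lie above the vehicle points, and Fosb lies at 0 to 0.488 CPM throughout.

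Fos encodes c-Fos, the inducible AP-1 subunit that gave the family its name. It lies at chr12:85473890-85477273 on the plus strand of GRCm38. The vehicle hearts had 1.27, 2.65 and 2.03 CPM (13, 28 and 20 counts, replicates 1 to 3), and the caffeine-treated hearts had 4.06, 5.76 and 3.64 CPM (29, 51 and 31 counts). All caffeine-treated hearts were above all vehicle hearts, and caffeine replicate 2 was the highest of the 6. The means were 1.98 ± 0.691 and 4.48 ± 1.12 CPM (SD, n = 3), a log2 fold change of 1.17 with a standard error of 0.32. The 95% interval of the fold ran from 1.39 to 3.66, and the edgeR quasi-likelihood test gave p = 0.00352 and an adjusted p of 0.269 (exact permutation p = 0.1, the smallest possible). Without any filter on low counts, the edgeR adjusted p of Fos was 0.0131, past the thresholds as were 1.07% of the genes in that fit, whose estimated prior degrees of freedom were infinite. Each gene's own spread then had no weight.

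Fosb, whose protein FosB and its stable truncated form accumulate under repeated stimulation, was barely detected and did not enter the test. It lies at chr7:19302696-19310051 on the minus strand. The vehicle hearts had 5, 5 and 3 counts (0.488, 0.473 and 0.304 CPM) and the caffeine-treated hearts 0, 2 and 2 counts (0, 0.226 and 0.235 CPM). No heart reached the 1.09 CPM on which the filter is set. Vehicle hearts were higher, in the opposite direction to Fos, but the totals were only 13 counts in vehicle and 4 in caffeine. Their ratio, allowing for library size, was 0.385 with a 95% counting interval of 0.0914 to 1.25, so that a difference was not detectable at this depth. The interval covers counting error only.

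Fosl2 encodes Fra-2, a Fos family protein that is induced later and lasts longer than c-Fos. It lies at chr5:32135801-32157842 on the plus strand. Vehicle hearts had 27.2, 33.3 and 31.8 CPM and caffeine-treated hearts 28.3, 42.7 and 31.5 CPM. The treatments overlapped, and caffeine replicate 2 was again the highest heart. The log2 fold change was 0.16 with a standard error of 0.15 and a 95% interval of −0.18 to 0.49 (edgeR adjusted p = 0.833). Without caffeine replicate 2 it was −0.04. The share of c-Fos in Fos family RNA, per kilobase, was 15.8%, 24.3% and 20.5% in vehicle hearts and 37.1%, 35.5% and 31.9% in caffeine-treated hearts, without overlap. The share rests on the same Fos counts and is not a separate observation of them.

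Jun encodes c-Jun, a main partner of c-Fos in AP-1. It lies at chr4:95049034-95052222 on the minus strand. Vehicle hearts had 64.8, 72.7 and 65.2 CPM and caffeine-treated hearts 81.5, 82.4 and 85.8 CPM. The treatments did not overlap. Scaled by library size alone they were only narrowly separated, with the highest vehicle heart at 75.95 CPM and the lowest caffeine-treated heart at 76.81 CPM. The means were 67.6 ± 4.43 and 83.2 ± 2.30 CPM (SD, n = 3), a log2 fold change of 0.30 with a standard error of 0.09 and a 95% interval of the fold from 1.08 to 1.41. The edgeR p was 0.00553 and the adjusted p was 0.297. Even the upper end of that interval lay below the fold threshold of 1.5. Its antisense gene Junos overlaps 689 bases and had 3 to 13 counts a heart, against 582 or more for Jun.

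Junb, which encodes an AP-1 subunit that can restrain c-Jun as well as activate, lies at chr8:84974484-84978718 on the minus strand. Vehicle hearts had 26.4, 28.0 and 24.1 CPM and caffeine-treated hearts 39.3, 28.7 and 37.1 CPM. The treatments were narrowly separated, since caffeine replicate 2 lay just above vehicle replicate 2. Its log2 fold change was 0.42 with a standard error of 0.13 and a 95% interval of 0.12 to 0.71 (edgeR p = 0.0095, adjusted p = 0.348, exact permutation p = 0.1). A stretch of 351 bases of Junb overlaps the far more abundant Prdx2 on the other strand (1832 to 2635 counts a heart), and whether counting used strand is not given in the sources used here, so the value of Junb is uncertain.

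Jund, the constitutively expressed and most abundant member, lies at chr8:70698949-70700616 on the plus strand. The antisense gene Gm11175 overlaps 919 of its bases and had 0 counts in every heart. Whether counting used strand is not given in the sources used here, so the level of Jund and the shares holding it are uncertain. Vehicle hearts had 91.4, 105 and 94.9 CPM and caffeine-treated hearts 107, 104 and 94.99 CPM. The treatments overlapped almost completely, and the log2 fold change was 0.07 with a standard error of 0.09 and a 95% interval of −0.13 to 0.27 (edgeR adjusted p = 0.885). With Jun and Junb higher and Jund nearly level, the share of Jund in Jun family RNA per kilobase was 63.3%, 64.2% and 64.8% in vehicle hearts and 60.03%, 61.9% and 57.0% in caffeine-treated hearts. The Fos family made up 3.80% to 4.56% of Fos and Jun family RNA per kilobase in vehicle hearts and 4.17% to 6.41% in caffeine-treated hearts, which overlapped.

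Egr1 encodes a zinc finger transcription factor induced by SRF and its partners. It lies at chr18:34859823-34864984 on the plus strand. Vehicle hearts had 7.52, 8.80 and 11.7 CPM and caffeine-treated hearts 14.7, 9.26 and 15.9 CPM. Caffeine replicates 1 and 3 were above all vehicle hearts, and caffeine replicate 2 was within their range. Egr1 had a log2 fold change of 0.51 with a standard error of 0.22 and a 95% interval of 0.02 to 1.002. The edgeR p was 0.0444, the adjusted p was 0.557 and the exact permutation p was 0.2.

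Nr4a1 encodes the orphan nuclear receptor Nur77, which is induced by adrenergic and cAMP signals. It lies at chr15:101254269-101274795 on the plus strand. Vehicle hearts had 9.87, 24.3 and 28.6 CPM and caffeine-treated hearts 26.0, 47.3 and 26.9 CPM. The separation lay in 2 hearts, the low vehicle replicate 1 and the high caffeine replicate 2, and the other 4 hearts lay between 24.3 and 28.6 CPM. For Nr4a1 the log2 fold change was 0.68 with a standard error of 0.33 and a 95% interval of −0.05 to 1.41 (edgeR p = 0.0643, adjusted p = 0.601, exact permutation p = 0.3). It was 0.34 without vehicle replicate 1 and 0.34 without caffeine replicate 2. Without a filter on low counts, in the fit described for Fos, the edgeR adjusted p was 0.000188.

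Ier2 encodes a small nuclear protein induced by growth factors. It lies at chr8:84661331-84662852 on the minus strand. Vehicle hearts had 16.3, 16.1 and 17.6 CPM and caffeine-treated hearts 27.0, 21.3 and 18.5 CPM. The vehicle hearts were nearly alike, and all caffeine-treated hearts were above them, caffeine replicate 3 only slightly. For Ier2 the log2 fold change was 0.41 with a standard error of 0.15 and a 95% interval of 0.09 to 0.74 (edgeR p = 0.0181, adjusted p = 0.415, exact permutation p = 0.1).

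Myc encodes c-Myc, which acts in a pair with Max and drives cell growth. It lies at chr15:61985391-61990374 on the plus strand. Vehicle hearts had 2.15, 2.55 and 2.13 CPM (22, 27 and 21 counts) and caffeine-treated hearts 3.08, 1.24 and 3.28 CPM (22, 11 and 28 counts). Caffeine replicates 1 and 3 were the highest of the 6 hearts, and caffeine replicate 2 was the lowest. The log2 fold change was 0.14 with a standard error of 0.36 and a 95% interval of −0.65 to 0.93 (edgeR adjusted p = 0.954), and it fell below 0 without caffeine replicate 1 or 3 (−0.02 and −0.11).

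**Figure D2:**
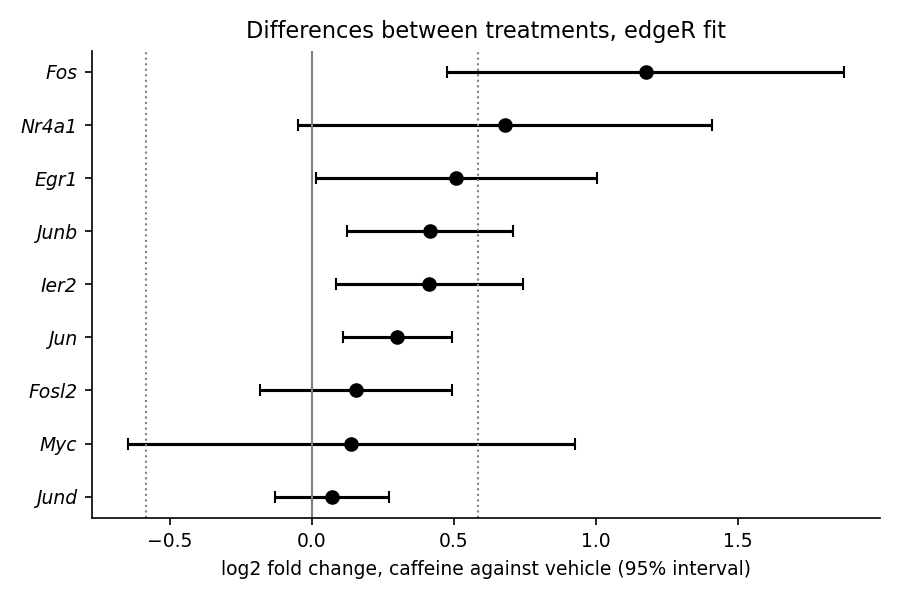
Log2 fold change of caffeine against vehicle for the 9 immediate early genes tested (points) with 95% intervals from the edgeR fit (bars), the solid line at 0 and dotted lines at a fold of 1.5 in either direction. All points lie to the right of 0, from 0.07 for Jund to 1.17 for Fos, and the intervals of Nr4a1, Fosl2, Myc and Jund cross 0.

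Spread between hearts of the same treatment differed widely from gene to gene. It is given as the SD of log2 CPM over 3 hearts, with its percentile among all genes tested. In vehicle hearts it was lowest for Ier2 (0.07, percentile 15.8) and highest for Nr4a1 (0.82, percentile 98.6). In caffeine-treated hearts it was lowest for Jun (0.04, percentile 5.24) and highest for Myc (0.71, percentile 97.6). Nr4a1 and Fos were in the upper range under both treatments (Nr4a1 at percentile 92.6 in caffeine, Fos at 92.8 in vehicle and 82.6 in caffeine), as was Egr1 (81.9 and 89.3). Jun and Jund were in the lower range under both (Jun at 24.6 in vehicle, Jund at 28.1 and 21.9).
The SD of Nr4a1 in vehicle hearts was far above the 0.11 that counting error alone gives at its depth. For Fos the counting error was nearer to the SD, at 0.34 against an SD of 0.48 in vehicle and 0.24 against 0.33 in caffeine. Counting error was taken from raw counts, while the SDs used a prior count of 2, which lowers them at counts as low as those of Fos and Myc. The SDs of Ier2 and Myc in vehicle hearts and of Jun in caffeine-treated hearts were below their counting error, which with 3 hearts can occur.
The SD exceeded the median of all genes (0.16 in either treatment) for 3 of the 9 genes in vehicle hearts and for 7 of the 9 in caffeine-treated hearts. The difference between these counts was not tested. It rested on single hearts, since without caffeine replicate 2 only 1 of the 9 caffeine SDs exceeded the median, and without vehicle replicate 1 or 3 the vehicle count was 5 or 6. Pooled over the treatments, edgeR's biological coefficient of variation ran from 8.42% for Jun to 28.3% for Nr4a1, with a median of 13.2% against 11.7% over all genes.

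**Figure D3:**
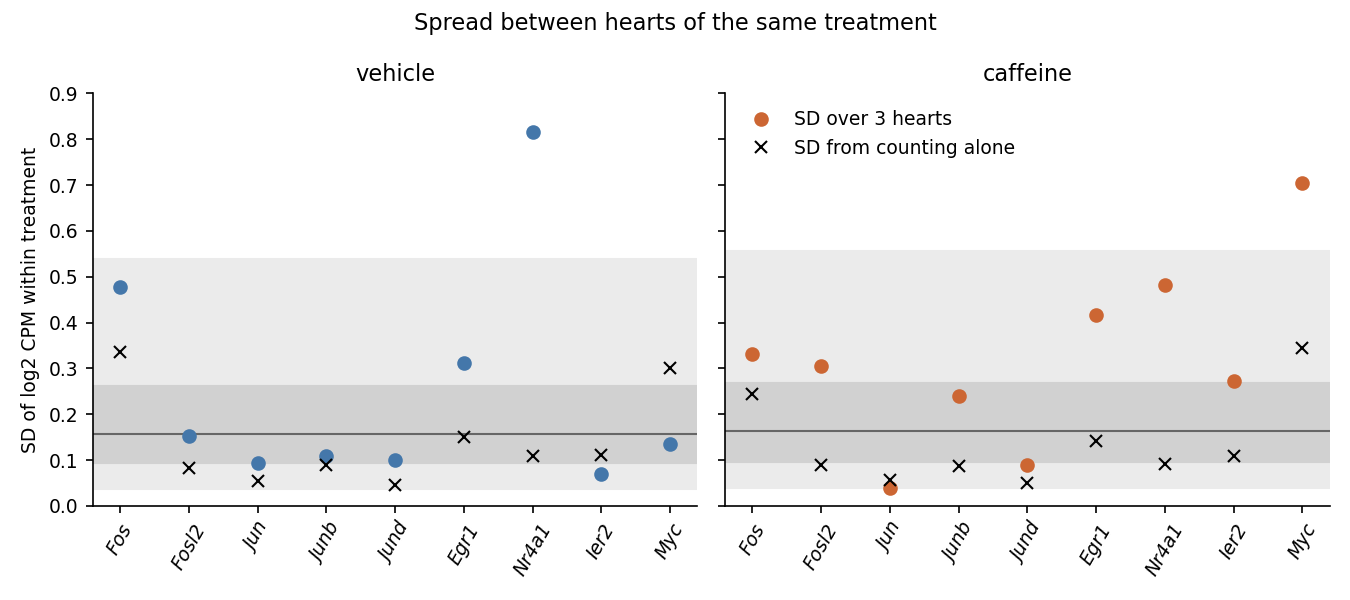
SD of log2 CPM over the 3 hearts of a treatment (points) for the 9 immediate early genes tested, with the SD that counting error alone gives (crosses), in vehicle hearts on the left and caffeine-treated hearts on the right. The line is the median over all genes tested, and the dark and light bands hold the middle 50% and 90% of genes. Nr4a1 in vehicle hearts (0.82) and Myc in caffeine-treated hearts (0.71) lie above the light band.

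The genes did not share 1 order of hearts. Among caffeine-treated hearts, each of the 3 was the highest for 3 of the 9 genes. Caffeine replicate 2 had the highest Fos, Fosl2 and Nr4a1 and the lowest Egr1, Junb and Myc of its treatment. Vehicle replicate 1 was the lowest of all 6 hearts for 6 of the 9 genes, where it was lowest for 18.6% of all genes tested and for 9 of 47 other immediate early genes (19.1%). Averaged over the 9 genes, log2 CPM relative to each gene's mean was −0.44, −0.07 and −0.11 in vehicle hearts and 0.25, 0.17 and 0.20 in caffeine-treated hearts. Without vehicle replicate 1 the 9 log2 fold changes were all still above 0, with a median of 0.34.
The summed level of the 10 genes was 247.4, 293.5 and 278.4 CPM in vehicle hearts and 330.8, 342.7 and 317.9 CPM in caffeine-treated hearts, without overlap. Jund and Jun make up most of that sum. Pairs of genes with the most similar profiles over the 6 hearts, by root mean square difference of centred log2 CPM, were Jun with Jund (0.14) and Jun with Junb (0.15), and Fos was nearest to Nr4a1 (0.34).

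**Figure D4:**
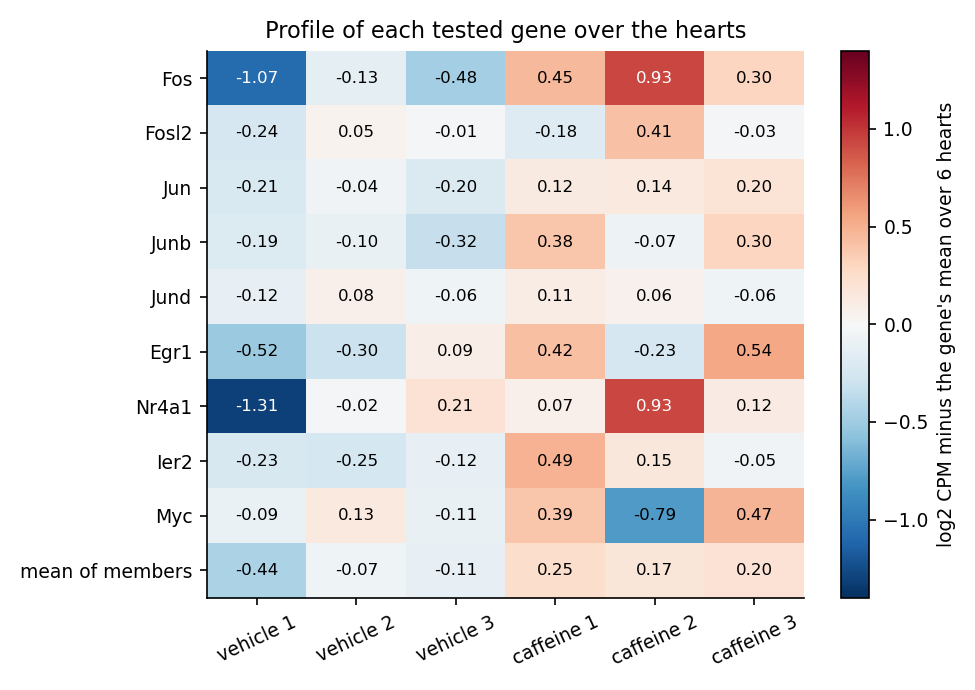
Log2 CPM of each immediate early gene tested (rows) in each heart (columns), after subtracting the mean of the gene over the 6 hearts, with red above and blue below that mean. The mean of the 9 genes is −0.44 in vehicle replicate 1 and 0.17 to 0.25 in the caffeine-treated hearts, while Fos and Nr4a1 peak in caffeine replicate 2, where Myc is lowest (−0.79).

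Of other genes tested, the 8 with the profile nearest to the mean of the 9 over the 6 hearts were Gm12906, Cd34, Mfap4, Lgals9, Erp29, Fxyd6, 9330158H04Rik and Lmnb1. Their root mean square differences from it were 0.04 to 0.07 on the log2 scale, where the mean profile itself had a root mean square of 0.24. Cd34 encodes a surface glycoprotein of endothelial and stromal progenitor cells, Mfap4 a matrix protein and Lmnb1 a nuclear lamin, and none of the 8 belongs to the other immediate early lists. Their log2 fold changes were 0.33 to 0.48. The gene nearest to Fos was Scn3b (difference 0.18), and the gene nearest to Nr4a1 was Phlda1 (0.19), itself a growth factor inducible gene.

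Other immediate early genes had a median near 0. Of 52 such genes in 2 lists, 22 transcription factors and 30 effectors, 47 were tested. In 32 the mean was higher in caffeine-treated hearts and in 15 lower, with a median log2 fold change of 0.06. By the quasi-likelihood test of edgeR none passed the thresholds, while 7 had an unadjusted p below 0.05 and 6 had all caffeine-treated hearts above all vehicle hearts. These were 14.9% and 12.8% of the 47, against 8.82% and 7.11% of all genes tested. Limma-voom also placed 0 past the thresholds, and DESeq2 and edgeR's exact test each placed 2, Atf3 and Ier5.
Atf3, a stress-induced factor that can pair with Jun proteins, had 4.30, 5.87 and 3.24 CPM in vehicle hearts and 10.2, 9.93 and 8.68 CPM in caffeine-treated hearts. Its log2 fold change was 1.10 with a standard error of 0.22 (edgeR quasi-likelihood adjusted p = 0.122, DESeq2 adjusted p = 0.0202). Its treatments did not overlap, as in Fos.
Ier5, of the same family as Ier2, had 54.1, 53.6 and 50.3 CPM in vehicle hearts and 86.4, 93.9 and 58.6 CPM in caffeine-treated hearts (log2 fold change 0.60, edgeR adjusted p = 0.226). Klf6 (0.26, adjusted p = 0.413) also had no overlap between treatments in the edgeR values. Fosl1, which encodes the Fos family protein Fra-1, was lower on average (−0.57, edgeR adjusted p = 0.667) and overlapped. Egr2, Egr3, Egr4 and Nr4a2, relatives of Egr1 and Nr4a1, were too low to be tested.
Among the effectors, Ptgs2, the inducible cyclooxygenase, averaged 0.918 ± 0.232 CPM in vehicle hearts and 1.76 ± 0.268 CPM in caffeine-treated hearts (SD, n = 3). All caffeine-treated hearts were above (log2 fold change 0.93, edgeR adjusted p = 0.431). This rests on only 10, 7 and 11 counts in vehicle and 13, 13 and 17 in caffeine-treated hearts. The matricellular gene Ctgf had a log2 fold change of 0.35, the kinase gene Plk2 −0.37 and the signalling inhibitor gene Spry4 −0.36, each overlapping between the treatments. Btg2 (0.33) and Dusp6 (0.14) were the other effectors without overlap.

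The regulators upstream of these genes had a median near 0 as well. Of 25 genes for SRF and its partners, CREB family factors and kinases of the MAPK, Ras and cAMP routes, 10 had a higher and 15 a lower mean under caffeine, and their median was −0.02 on the log2 scale. None passed the thresholds, and 1 of the 25 had an unadjusted edgeR p below 0.05, against 8.82% of all genes. Srf had 210.4, 228 and 206 CPM in vehicle hearts and 237, 217 and 208 CPM in caffeine-treated hearts, which overlapped. The log2 fold changes of largest size were those of Crem (0.28), Mkl2 (−0.25), Mapk9 (−0.21) and Braf (−0.16). In Mapk9, which encodes the kinase JNK2, all caffeine-treated hearts were below all vehicle hearts. It was 1 of the 25 genes, where 7.12% of all genes showed this.
Of 15 further partners of AP-1 and Myc proteins 13 were tested, 4 with a higher and 9 with a lower mean, with a median of −0.10. None passed the thresholds, and 1 of the 13 had an unadjusted edgeR p below 0.05, against 8.82% of all genes. That gene, Mxd1, which encodes an antagonist of Myc that pairs with Max, had 9.28, 8.99 and 11.8 CPM in vehicle hearts and 5.32, 8.35 and 6.80 CPM in caffeine-treated hearts (log2 fold change −0.54, edgeR adjusted p = 0.422). All caffeine-treated hearts were below all vehicle hearts in this 1 of the 13 genes, where 7.12% of all genes showed this. Atf4 (0.21), Max (−0.20) and Jdp2 (0.19) overlapped between the treatments.

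Of 20 known AP-1 and Egr target genes 15 were tested, 12 with a higher and 3 with a lower mean under caffeine (median 0.13 on the log2 scale). None passed the thresholds, and 1 of the 15 had an unadjusted edgeR p below 0.05, against 8.82% of all genes. In none did the treatments separate completely. The metallothionein gene Mt2 had 102, 95.8 and 86.0 CPM in vehicle hearts and 170.2, 96.6 and 203 CPM in caffeine-treated hearts (log2 fold change 0.73, edgeR adjusted p = 0.297). Caffeine replicate 2 lay within the vehicle range, and without it the log2 fold change of Mt2 was 0.98 (edgeR adjusted p = 0.0151). Over all genes, that fit placed 15 higher and 7 lower past the thresholds. No target gene passed them when any other heart was left out. The metalloproteinase inhibitor gene Timp1 (0.69) and the haem oxygenase gene Hmox1 (0.26) overlapped between the treatments, with edgeR adjusted p-values of 0.769 and 0.794.

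**Figure D5:**
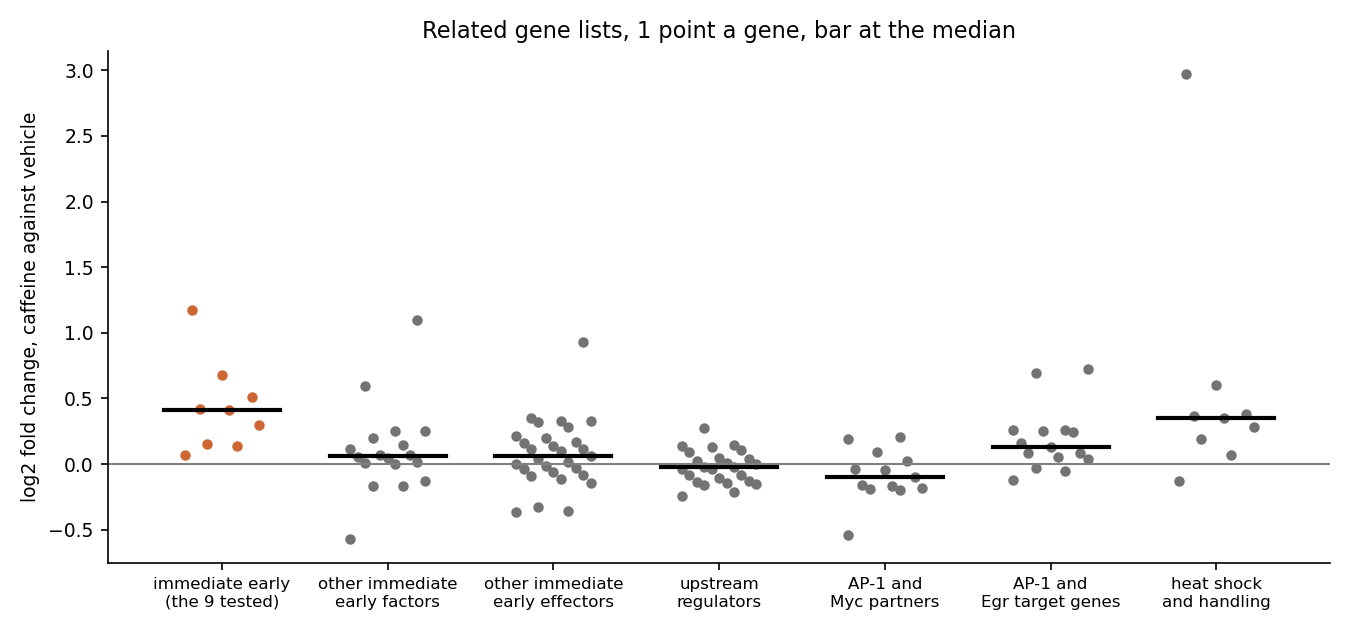
Log2 fold change of caffeine against vehicle (vertical axis) for each gene tested, as points, in the immediate early genes described and in the related lists, with a bar at the median of each list. The medians are 0.41 for the 9 immediate early genes, 0.06 for both lists of other immediate early genes, −0.02 for upstream regulators, −0.10 for partners, 0.13 for target genes and 0.35 for heat shock and handling genes.

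Heat shock and tissue handling genes also had mostly higher means in caffeine-treated hearts. Of 10 such genes 9 were tested, 8 with a higher and 1 with a lower mean under caffeine (median 0.35 on the log2 scale). By the quasi-likelihood test of edgeR none passed the thresholds and 3 of the 9 had an unadjusted p below 0.05, against 8.82% of all genes. The exact test of edgeR placed 1 past the thresholds, Hspa1b. Hspa1b, an inducible Hsp70 gene, had 1.37, 1.14 and 1.22 CPM in vehicle hearts and 3.92, 21.3 and 3.75 CPM in caffeine-treated hearts, a log2 fold change of 2.97 with a standard error of 0.67 (edgeR quasi-likelihood adjusted p = 0.176). Its reads may be shared with the near-identical Hspa1a, so its level is uncertain. Dnajb1 (0.60) and Hspb1 (0.36), which encode chaperones, also had all caffeine-treated hearts above all vehicle hearts. With Hspa1b these were 3 of the 9 genes, against 7.11% of all genes, and Hsph1 (0.38) overlapped.
Caffeine replicate 2, the heart with the highest Fos and Nr4a1, was also the highest for Hspa1b, Dnajb1 and Hspb1. Without that heart the log2 fold change was 0.95 for Fos, 0.34 for Nr4a1 and −0.04 for Fosl2, which peak in it. It was then 0.31 for Jun, 0.54 for Junb, 0.06 for Jund, 0.72 for Egr1, 0.44 for Ier2 and 0.48 for Myc. The part of heat shock or handling in the levels of the immediate early genes was not tested.

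Markers of other cell types were measured beside these genes, because in bulk tissue fewer cells of a type and less RNA per cell cannot be told apart. The 5 fibroblast markers all had a higher mean under caffeine (median 0.25 on the log2 scale) and summed to 676 to 779 CPM in vehicle hearts and 823 to 967 CPM in caffeine-treated hearts, without overlap. The 2 with the highest level per kilobase were Dcn (0.28, edgeR adjusted p = 0.446) and Col1a1 (0.38, adjusted p = 0.425). The 5 macrophage markers also all had a higher mean, with log2 fold changes of 0.05 to 0.93 and a median of 0.34. They summed to 122 to 193 CPM in vehicle hearts and 148 to 277 CPM in caffeine-treated hearts. In 2 of the 5 all caffeine-treated hearts were above all vehicle hearts, against 7.11% of all genes. None of these 10 markers passed the thresholds, and 3 had an unadjusted edgeR p below 0.05, against 8.82% of all genes. The part of these markers in the levels of the immediate early genes was not tested. The 5 endothelial markers summed to 631 to 667 CPM in vehicle hearts and 616 to 675 CPM in caffeine-treated hearts, with a median of 0.00, and red cell markers to 712 to 1332 and 770 to 1627 CPM. Smooth muscle and pericyte markers had a median of −0.10, and the 4 neutrophil and platelet markers had a median of 0.25 with sums of 12.6 to 21.8 and 13.0 to 31.4 CPM. Markers of adipocytes, lymphocytes and Schwann cells or neurons summed to under 10 CPM in every heart. Of 5 skeletal muscle markers only Ckm, which cardiomyocytes also express, was tested (−0.06, edgeR adjusted p = 0.935).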

How the data were processed

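Left ventricular poly(A) RNA of 6 hearts was sequenced. The deposited values are raw counts of reads per gene, without normalization. Per the labels' processing notes and the methods, the authors made them with FastQC, TopHat2 (mm10, GRCm38) and HTSeq. Groups and replicate numbers came from the sample titles. Genes were filtered with filterByExpr (minimum count 10, minimum total 15), scaled by TMM and tested with edgeR's quasi-likelihood test on treatment alone, called at a Benjamini-Hochberg adjusted p below 0.05 and a fold above 1.5. The fit was tested on simulated data. Log2 CPM used a prior count of 2 for profiles, spread and the two-sided exact permutation test over 20 labelings. Levels per kilobase used merged exons of GENCODE mouse release 21 (M series), which also gave positions.

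The genes and lists were chosen with earlier results of these data known. All 191 list symbols were found, 4 of them by a synonym. Named were all 10 genes, and of each related list any gene past the thresholds and the 4 with the largest absolute log2 fold change. Further list genes were named as values or where the treatments did not overlap (chosen after their values were seen). Also named were the 8 genes nearest in profile, and for cardiomyocytes and fibroblasts the 2 markers with the highest level per kilobase. A gene that the rule names is not reported here. Alternatives were other scalings, filters and tests, the replicate number as a block, and leaving out each heart. No batch is given in the sources used here. Python 3.11.15 (with SciPy 1.17.1, NumPy 2.4.6, Matplotlib 3.10.9, pandas 2.3.3) and R 4.3.3 (with limma 3.58.1, DESeq2 1.42.0, edgeR 4.0.16) were used.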

Additional observations from a re-analysis of the deposited data

How the results depend on the processing

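The call of the immediate early genes held under 8 of the 9 other fits of all hearts and without each heart in turn, at 0 genes past the thresholds. Without a filter on low counts it was 2, Fos and Nr4a1, in a fit of 22407 genes whose prior degrees of freedom were infinite, against 6.89 with the filter. The log2 fold change turned negative for Jund with library size only (−0.018), for Fosl2 without caffeine replicate 2 (−0.039) and for Myc without caffeine replicate 1 (−0.017) or 3 (−0.11). The median over the 9 genes stayed between 0.32 and 0.44. Leaving out each heart gave 0.94 to 1.44 for Fos, 0.27 to 0.36 for Jun, −0.039 to 0.27 for Fosl2 and −0.11 to 0.48 for Myc. Low counts limit Fosb, Fos and Myc.

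Over all genes, 11 were higher and 3 lower in caffeine past the thresholds. The counts were 145 and 95 without a filter, 39 and 28 with DESeq2, and 61 and 33 with edgeR's exact test, and 15 genes were lower with library size only. Leaving out each heart gave 4 to 17 higher and 0 to 13 lower. For genes higher in caffeine, no filter gave 1 other immediate early gene (Atf3), 1 target gene (Mt2) and 2 heat shock genes (Hspa1a and Hspa1b). DESeq2 gave 2 other immediate early genes, the exact test 2 and 1 heat shock gene, and leaving out each heart 0 to 1 target genes. Of the 9 genes, 4 had the smallest permutation p, and 2 with library size only. SDs above the median of all genes were 3 in vehicle and 7 in caffeine, and 4 to 6 and 1 to 7 when each heart was left out. The cause of these differences was not tested.

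With the replicate number as a block, 29 genes were higher and 11 lower, and 0 of the immediate early genes passed the thresholds, with Fos at 1.18 (edgeR adjusted p = 0.188). Deviations of hearts of the same number correlated at 0.045, −0.030 and −0.038 across genes, and those of different numbers at −0.083 to 0.120. The same-number values lay within the range of the others. These correlations cannot show whether such hearts shared a litter or a preparation.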
